A study of Homo sapiens with 6 samples.

Results

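AP-1 is a dimeric transcription factor built from proteins of the FOS and JUN families, and it is described here together with 3 further genes that respond quickly to growth factors and stress. The 10 genes were chosen by their symbols, out of 23228 symbols counted, and the rule itself uses no measured value, although it was set with earlier results of these data known. They are FOS, FOSB, FOSL1 and FOSL2, JUN, JUNB and JUND, the stress-induced factor ATF3, the zinc finger factor EGR1, and IER3, which codes for a signaling protein and not for a DNA-binding factor. The cells were MDA-MB-231, a human triple negative breast cancer (TNBC) line, profiled by RNA-seq. The control group, with 3 replicates, carried a lentiviral shRNA that has no target, and the PELP1-KD group, also with 3 replicates, carried an shRNA against PELP1, a coregulator of nuclear receptors and other transcription factors. Both groups were stably transduced cells kept under puromycin selection and grown in serum. A single shRNA against PELP1 was used, and nothing states that the replicates came from separate cultures, so the p-values measure the spread between these samples, which may be technical.

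Proteins of the FOS and JUN families share a basic region, which contacts DNA, and a leucine zipper, through which they pair. FOS proteins need a JUN partner, whereas JUN proteins can also pair with each other or with ATF3 and other basic leucine zipper (bZIP) factors. In resting cells FOS, EGR1 and ATF3 are nearly silent, and a stimulus switches them on within minutes through kinases that act on SRF and on ETS-type factors at their promoters. FOSL1 and FOSL2 appear later and last longer, and FOSL1 is known as an abundant AP-1 protein of invasive breast cancer cells.

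The promoters of 5 members held a short word that an AP-1, CREB or SRF protein can recognize, and these stretches are shown because such words are the known binding sites of the family and of factors upstream of it. Windows from 250 bases before to 50 bases after the start were taken from RefSeq (GRCh38.p14) and were given for 8 of the 10 members, with 2 windows for ATF3. FOSL1 and IER3 had no entry. RefSeq starts can differ from the GENCODE gene bounds given below, and the FOSL2 and JUN stretches shown lie within those bounds. Capitals mark the matches. FOSL2 held the AP-1 site TGANTCA, found in 7.71% of all 35116 windows, at position 5 after the start (chr2:28392832-28392898, plus strand). JUN and ATF3 held its longer variant TGACATCA, found in 2.61% of windows, at -67 in JUN (chr1:58784077-58784144, minus strand) and at -123 before the first ATF3 start (chr1:212565254-212565321, plus strand). JUND held the CREB site TGACGTCA, found in 1.85% of windows, at -200 (chr19:18281785-18281852, minus strand). EGR1 held a pair of CArG boxes, the SRF site found in 1.29% of windows, at -105 and -83, and the EGR site GCGNGGGCG, found in 9.43% of windows, at -198 (chr5:138465251-138465435, plus strand). Both strands were searched, and no match of these words overlapped another. The windows of FOS, FOSB, JUNB and the second ATF3 start held none of these letters. Bases more than 250 before the start were not searched, so this does not show that these promoters lack such sites.
FOSL2: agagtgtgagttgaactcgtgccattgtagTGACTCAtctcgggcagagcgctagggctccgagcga
JUN: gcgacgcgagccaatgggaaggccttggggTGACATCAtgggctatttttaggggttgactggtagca
ATF3: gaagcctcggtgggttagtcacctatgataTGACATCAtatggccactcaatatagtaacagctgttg
JUND: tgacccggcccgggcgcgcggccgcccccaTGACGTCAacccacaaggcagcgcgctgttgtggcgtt
EGR1: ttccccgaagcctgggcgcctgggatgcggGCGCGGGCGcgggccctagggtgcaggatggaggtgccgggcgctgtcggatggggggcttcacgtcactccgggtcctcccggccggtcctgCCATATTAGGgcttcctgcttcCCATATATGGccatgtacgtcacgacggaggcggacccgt

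**Figure D1:**
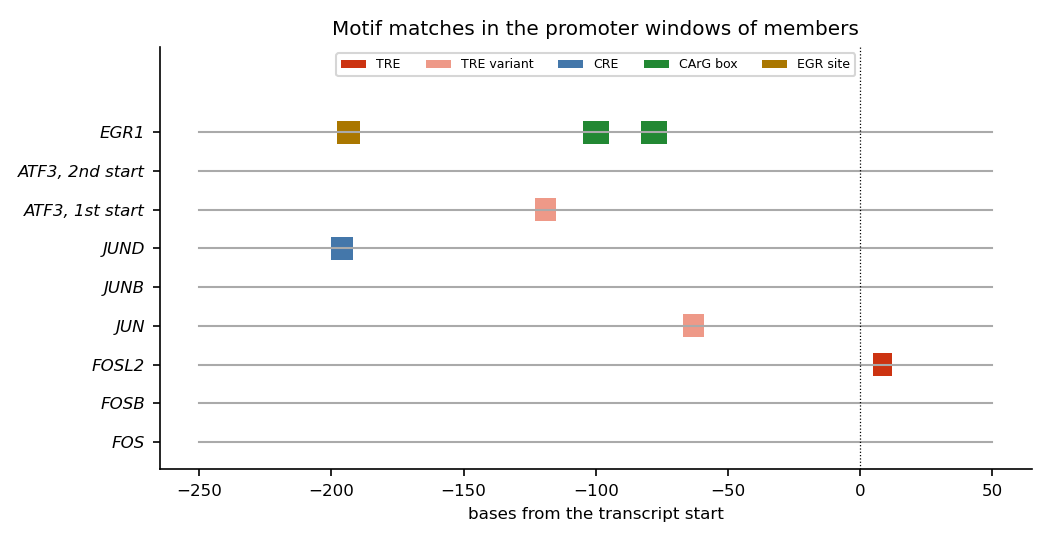
Motif matches in the RefSeq promoter windows of 8 members, with bases from the transcript start on the x axis and 1 line per window. Colored blocks are matches of the AP-1 site (TRE), its variant, the CREB site (CRE), the CArG box and the EGR site; 5 of the 9 windows hold a match, and EGR1 holds 3.

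Reads counted on genes came to between 17304864 and 23132102 per replicate, and the floor of 3 counts corresponded to between 0.127 and 0.177 CPM, the read count scaled to library size after TMM normalization. The targeted gene PELP1 had 57.2, 56.1 and 60.2 CPM in the controls and 28.6, 29.9 and 30.3 CPM in the PELP1-KD replicates, a log2FC of -0.97 (standard error 0.055, adjusted p = 1.48e-11, edgeR). Of the markers of the line, the mesenchymal genes VIM, CD44, CAV1 and AXL had 2221, 1209, 701 and 1438 CPM in control cells and 1922, 828, 568 and 1311 CPM in PELP1-KD cells. Group means of ESR1, PGR and CDH1 were below 0.1 CPM, and those of GATA3 and EPCAM were below 10 CPM. ERBB2 had means of 113 and 118 CPM in control and PELP1-KD cells. The leukocyte gene PTPRC had no read, and the endothelial gene PECAM1 had group means near 0.2 CPM. The luminal factor FOXA1 was counted with 11, 26 and 20 reads in the controls against 7, 0 and 5 reads after knockdown, a log2FC of -2.37 (adjusted p = 5.10e-04). Control replicate 1 stood apart from the other controls, since its counts differed from theirs by 3.88 and 4.11 chi-square units per degree of freedom, where they differed by 1.47. In the PELP1-KD group replicate 2 differed from the others by 2.76 and 2.72, where these differed by 1.51. The log2 CPM of control replicate 1 relative to the mean of the other controls shifted with base composition. Its median went from 0.12 in the lowest of 10 equal bins of transcript GC content to -0.14 in the highest.

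Among the members tested, FOSL1, JUN, FOS and EGR1 were lower in PELP1-KD cells, and FOSL2, JUNB, JUND, ATF3 and IER3 were higher. All of these changes were below 2-fold, and paralogs of the same family moved in opposite directions. The test was edgeR's quasi-likelihood test over 12796 genes. Of the 10 members, 9 had enough counts to be tested and FOSB did not. At an adjusted p below 0.05, 5 members were higher and 4 were lower, where 22.7% of all tested genes were called higher and 24.2% were called lower. In the same 5 and 4 members the groups did not overlap, which held for 27.0% of tested genes in the higher direction and 28.0% in the lower. With a log2FC beyond 1 as well, 0 members were called, against 1.90% of tested genes called higher and 1.34% called lower. The size of the log2FC lay between 0.24 and 0.78 among these members with a median of 0.53, where the median size over all tested genes was 0.17. Without control replicate 1, 4 members were called higher and 3 lower, since JUND and FOS no longer passed. For a single gene, the exact permutation test of CPM (two-sided) gave p = 0.1 in every member, the smallest value that 3 against 3 replicates allow.

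**Figure D2:**
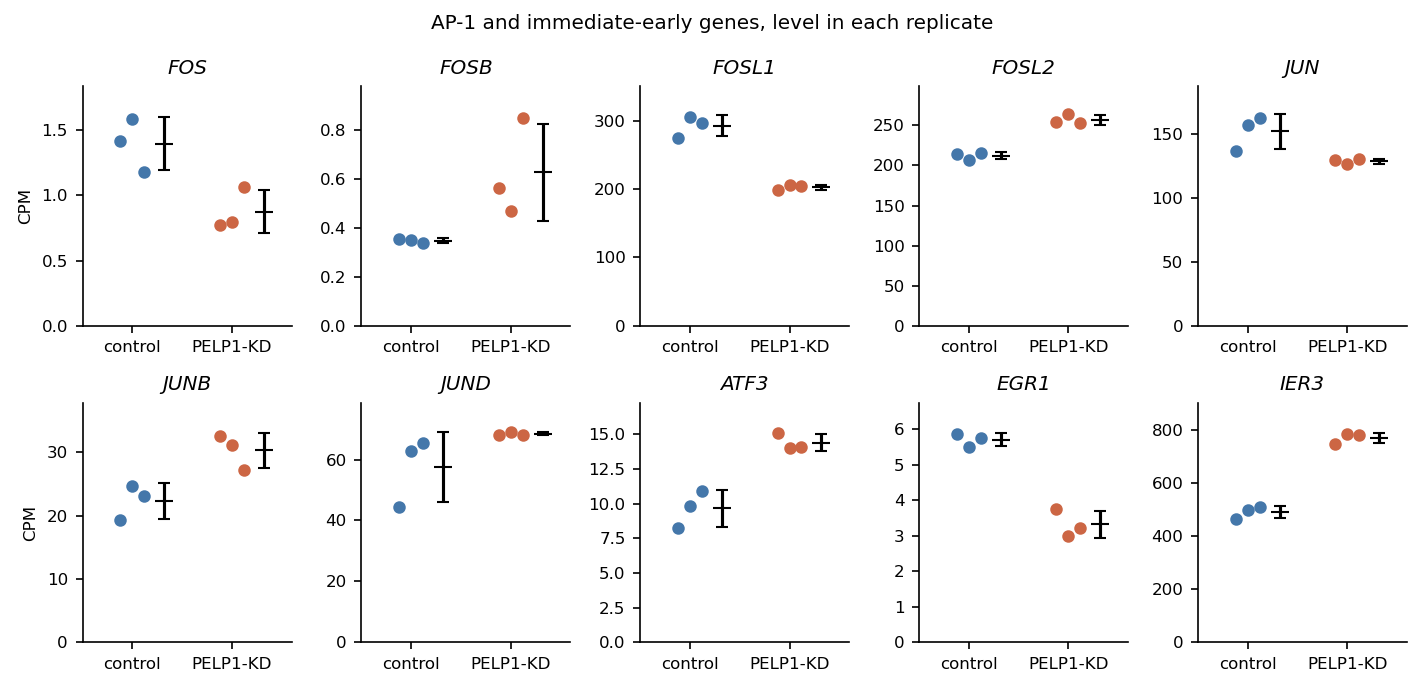
Level of each member in CPM (linear axis from 0) for the 3 control and 3 PELP1-KD replicates as points, with the mean and SD as bars beside them. The groups do not overlap in any panel, JUND of control replicate 1 lies below the other controls, and FOS and FOSB are under 2 CPM.

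FOSL1, which codes for FRA-1, lies on chromosome 11 (65892049 to 65900573 on the minus strand, GRCh38). Its level was 275, 305 and 297 CPM in control replicates 1, 2 and 3 and 199, 206 and 204 CPM in PELP1-KD replicates 1, 2 and 3. No PELP1-KD value reached the control range, and the gap between the groups was wider than the range within either. FOSL1 fell by 30.7%, a log2FC of -0.53 (standard error 0.037, adjusted p = 4.03e-10). It was an abundant transcript, with a mean level above that of 93.8% of tested genes.

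FOSL2, which codes for FRA-2 and lies on chromosome 2 (28392448 to 28417312 on the plus strand), went the other way. It had 214, 207 and 215 CPM in the controls and 254, 264 and 252 CPM in the PELP1-KD replicates. The spread within each group was small, with a coefficient of variation of 2.00% in the controls and 2.47% in PELP1-KD cells. The rise was 21.1%, a log2FC of 0.28 (standard error 0.034, adjusted p = 1.01e-06).

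FOS, the founding member of the family on chromosome 14 (75278774 to 75282230 on the plus strand), was counted with only 24, 36 and 21 reads in the controls and 15, 17 and 25 reads in the PELP1-KD replicates. On the CPM scale these were 1.42, 1.58 and 1.18 against 0.770, 0.797 and 1.06. The highest PELP1-KD replicate was close to the lowest control. The log2FC was -0.67 (standard error 0.25, adjusted p = 0.0361). This call was lost in DESeq2 (adjusted p = 0.155) and without control replicate 1 or 2 or PELP1-KD replicate 1 or 2, with adjusted p-values between 0.0619 and 0.153.

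FOSB (chromosome 19, 45467995 to 45475179 on the plus strand) was the least expressed member. It had 6, 8 and 6 reads in the controls and 11, 10 and 20 reads in the PELP1-KD replicates, and it did not pass the filter on low counts. Its PELP1-KD replicates, with 0.564, 0.469 and 0.850 CPM, lay above the controls, which were between 0.338 and 0.355 CPM. With no filter on low counts its log2FC was 0.86 (standard error 0.44, adjusted p = 0.115), so a difference was not shown at this depth.

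Set on a common scale per exon length (RPKM, from GENCODE 29 exons), FOSL1 made up most of the FOS family on that scale. Its level was 155 RPKM ± 8.14 (SD, n = 3) in control cells and 107 RPKM ± 1.90 (SD, n = 3) in PELP1-KD cells. FOSL2 had 29.7 RPKM ± 0.593 (SD, n = 3) and 35.9 RPKM ± 0.887 (SD, n = 3). FOS was at 0.431 and 0.271 RPKM, and FOSB was lower still. The summed RPKM of the 4 genes was 176, 191 and 188 in the controls and 141, 146 and 144 in the PELP1-KD replicates, which is 22.3% lower on average. FOSL1 held 82.8%, 84.5% and 83.7% of that sum in the controls and 74.6%, 74.5% and 75.1% in PELP1-KD cells. FOSL2 rose from between 15.2% and 17.0% of the sum to between 24.5% and 25.3%. The ratio of FOSL1 to FOSL2 was 5.23 ± 0.348 (SD, n = 3) in control cells and 2.99 ± 0.0618 (SD, n = 3) in PELP1-KD cells. These shares and the order of the genes depend on the exon lengths used, 1887 bases for FOSL1 and 7157 for FOSL2. Per exon length FOSL1 was above FOSL2 in all 6 replicates, whereas in CPM, with no length, FOSL2 was above FOSL1 in the 3 PELP1-KD replicates.

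**Figure D3:**
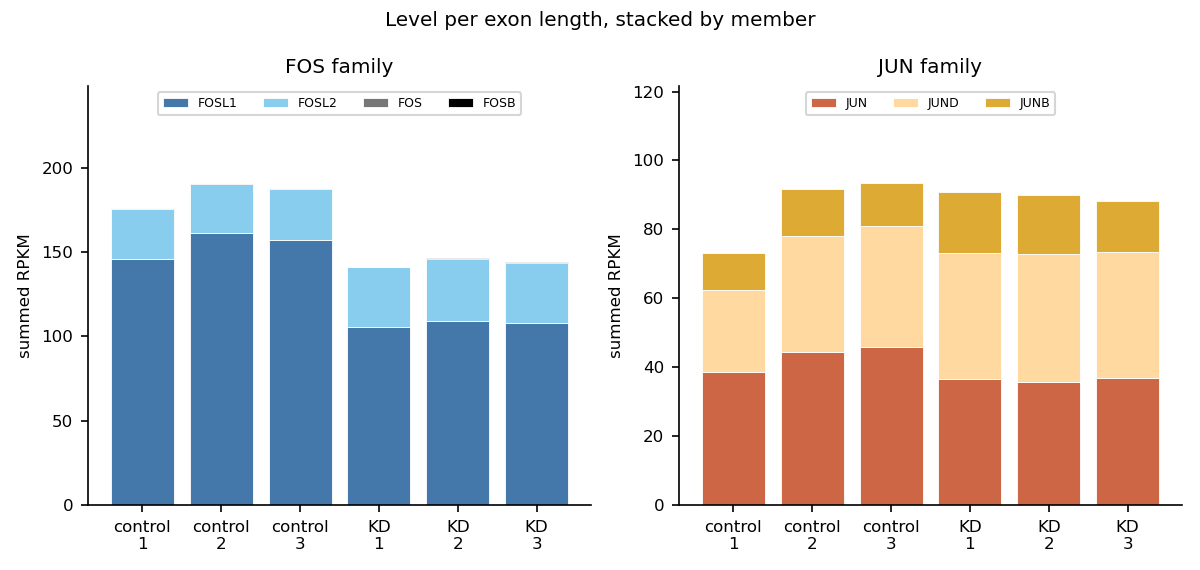
RPKM of the FOS family (left) and the JUN family (right) stacked by member for each replicate, with KD standing for PELP1-KD. FOSL1 shrinks and FOSL2 grows in the PELP1-KD replicates, and the JUN part shrinks while the JUNB part grows; FOS and FOSB are too low to be seen.

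In the JUN family, JUN fell and JUNB rose. JUN codes for c-Jun, the strongest activator of the family, and is a gene of a single exon on chromosome 1 (58780788 to 58784327 on the minus strand). It had 137, 157 and 162 CPM in the controls and 129, 127 and 130 CPM in the PELP1-KD replicates. Control replicate 1 was closest to the PELP1-KD values, and the groups did not overlap. The log2FC was -0.24 (standard error 0.049, adjusted p = 4.37e-04), and without control replicate 1 it was -0.31.

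JUNB, which in many settings opposes c-Jun, lies on chromosome 19 (12791496 to 12793315 on the plus strand). Its level was 19.2, 24.7 and 23.0 CPM in the controls and 32.5, 31.2 and 27.2 CPM in the PELP1-KD replicates. The lowest PELP1-KD replicate was above the highest control. The log2FC was 0.43 (standard error 0.084, adjusted p = 2.92e-04), and it was 0.33 without control replicate 1. JUNB shares 259 exon bases with HOOK2 on the opposite strand, and although the library kit keeps strand, its use in the counting is not stated, so reads of these bases cannot be assigned with certainty. HOOK2 itself was counted at 6.29 ± 0.615 CPM in controls against 8.39 ± 0.454 CPM after knockdown (mean ± SD, n = 3 each).

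JUND, the family member that is made steadily in resting cells, lies on chromosome 19 (18279760 to 18281622 on the minus strand). It had 44.5, 62.9 and 65.3 CPM in the controls and 68.1, 69.0 and 68.1 CPM in the PELP1-KD replicates. The PELP1-KD replicates agreed within 0.782% (coefficient of variation), whereas the controls varied by 19.8%, with control replicate 1 far below the others. The log2FC was 0.24 (standard error 0.086, adjusted p = 0.0254), and it was 0.09 without control replicate 1 (adjusted p = 0.116). The call was also lost in DESeq2 (adjusted p = 0.228) and without any single PELP1-KD replicate (adjusted p between 0.0635 and 0.0776).

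The summed RPKM of the JUN family was 73.0, 91.6 and 93.5 in the controls and 91.0, 89.9 and 88.3 in the PELP1-KD replicates, so the groups overlapped, whereas the shares of its members did not. JUN held 50.0% ± 2.43 (SD, n = 3) of the sum in control cells and 40.5% ± 1.03 (SD, n = 3) in PELP1-KD cells, and JUNB held 14.3% ± 0.659 and 18.5% ± 1.43 (SD, n = 3 each). The ratio of JUN to JUNB went from 3.65, 3.26 and 3.62 in the control replicates to 2.04, 2.09 and 2.46 in the PELP1-KD replicates, with no overlap. JUN exceeded JUND in each control, by a ratio between 1.31 and 1.61, and was near it in PELP1-KD cells, at a ratio between 0.965 and 1.01. This near-equality also rests on exon lengths, 3540 bases for JUN and 1863 for JUND, and in CPM JUN was above JUND in every replicate. No test is given for these sums, shares and ratios. An exact permutation test of 3 against 3 replicates cannot go below p = 0.1. The members were also chosen with results known, which bears on their single-gene tests as well.

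ATF3, a bZIP factor induced by many stresses, lies on chromosome 1 (212565334 to 212620777 on the plus strand). It had 8.22, 9.86 and 10.9 CPM in the controls and 15.1, 14.0 and 14.1 CPM in the PELP1-KD replicates. The PELP1-KD replicates were close together and above all controls. ATF3 rose by 48.3%, a log2FC of 0.57 (standard error 0.098, adjusted p = 7.29e-05).

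EGR1, an early growth response factor that binds GC-rich sites, lies on chromosome 5 (138465490 to 138469315 on the plus strand). It was counted with 99, 125 and 102 reads in the controls and 73, 64 and 76 reads in the PELP1-KD replicates, which is 5.85, 5.50 and 5.74 CPM against 3.75, 3.00 and 3.23 CPM. The controls lay close together and above every PELP1-KD replicate. EGR1 fell by 41.7%, a log2FC of -0.78 (standard error 0.14, adjusted p = 8.04e-05), the farthest from 0 of the members tested. Its paralogs EGR2, EGR3 and EGR4 had at most 3 reads in any replicate.

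IER3, also known as IEX-1, is induced by growth factors and NF-κB and modulates survival and ERK signaling. It lies on chromosome 6 (30743199 to 30744554 on the minus strand) and was the most abundant member, above 98.8% of tested genes in mean CPM. It had 465, 498 and 509 CPM in the controls and 747, 784 and 780 CPM in the PELP1-KD replicates. The distance between the groups was several times the range within them. IER3 rose by 56.9%, a log2FC of 0.65 (standard error 0.033, adjusted p = 1.87e-12). It shares 359 exon bases with the antisense gene IER3-AS1, which was not among the counted symbols under this name. Reads from the antisense strand may therefore be included.

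**Figure D4:**
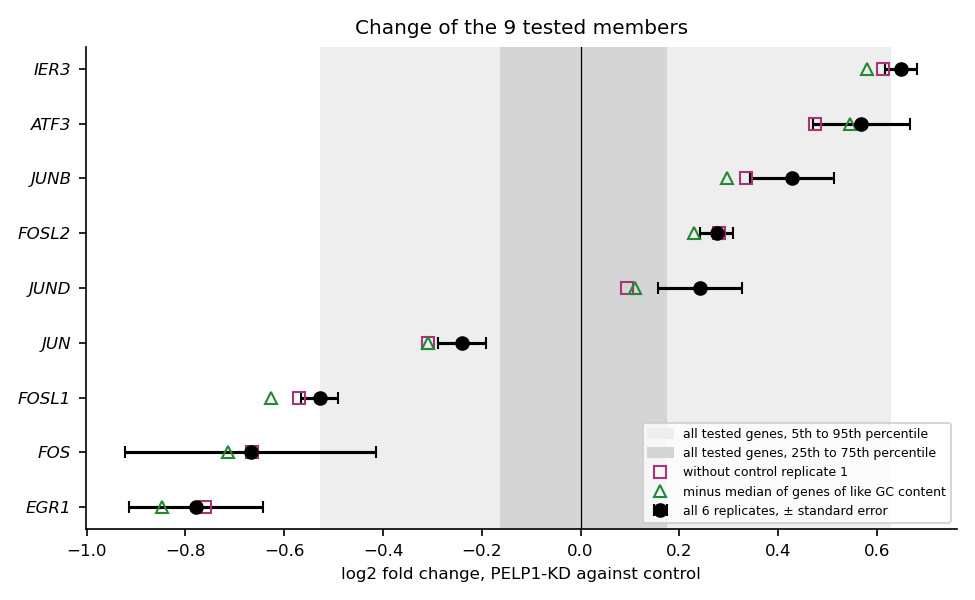
log2FC of the 9 tested members (x axis), PELP1-KD against control, with standard errors, beside the value without control replicate 1 and the value after subtracting the median of genes of like GC content. Grey bands give the ranges of all tested genes; JUND moves from 0.24 to 0.09 and 0.11 and lies within the inner band under both, and the other members keep their side of 0 outside it.

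Base composition moved with the comparison over all genes, and its part in the members' changes was not tested beyond the subtraction given here. The median log2FC rose from -0.17 in the lowest of the 10 bins of transcript GC content to 0.13 in the highest. The members' transcripts were GC-rich, from 50.8% in ATF3 to 69.7% in JUND, where JUND exceeded 99.6% and JUNB 96.2% of tested genes. After the median of the same bin was subtracted, the log2FC of JUND was 0.11 and that of JUNB 0.30, those of IER3, ATF3 and FOSL2 were 0.58, 0.55 and 0.23, and those of FOSL1, JUN, FOS and EGR1 were -0.63, -0.31, -0.71 and -0.85. The medians subtracted were all above 0 and at most 0.13, where every member's log2FC was at least 0.24 in size. The falls thus had to be larger and the rises smaller on this scale, and no sign could change.

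Transcripts of early response genes are short-lived, in part through AU-rich elements in the 3' UTR. The word ATTTA was present in the 3' UTR of all 10 members in GENCODE 29, and in that of 73.7% of the 10988 tested genes with a 3' UTR of at least 20 bases. It occurred 9 times in FOSL2, 6 times in IER3, 5 times in FOS and once each in FOSL1, JUND and EGR1. These counts are not scaled to the length of the 3' UTR, which was 4864 bases in FOSL2, 903 in IER3 and 806 in FOS. The longer word TTATTTATT, found in 9.56% of the same genes, occurred in FOS (chr14:75282060-75282088, plus strand) and FOSL2 (chr2:28416355-28416383, plus strand), whose log2FC of -0.67 and 0.28 had opposite signs. Both sites are printed with the word in capitals.
FOS: tgtttttaatTTATTTATTaagatggatt
FOSL2: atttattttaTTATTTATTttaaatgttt

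Other genes of the pathway were taken from 4 lists written from general knowledge, but with earlier results of these data known. Their counts thus describe these genes and are no independent test. They are to be read against the 22.7% of all tested genes called higher and the 24.2% called lower. Among other bZIP factors, 8 of 32 tested genes were higher and 11 (34.4%) were lower, with a median log2FC of -0.05 against 0.0014 over all tested genes. Those that rose most were BATF, which pairs with JUN proteins, at a log2FC of 0.88 (adjusted p = 0.00453), the small MAF protein MAFK at 0.57 (adjusted p = 1.52e-08) and the CRE-binding factor CREB5 at 0.45 (adjusted p = 4.32e-05). NFE2L3, a relative of NRF2, fell by 0.71 on the log2 scale (adjusted p = 1.82e-12), the MAF partner BACH1 fell by 0.56 (adjusted p = 9.95e-09) and CREBZF fell by 0.54 (adjusted p = 4.35e-08).

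Among other immediate-early genes and their feedback regulators, 16 of 50 tested genes were higher and 19 (38.0%) were lower, with a median log2FC of -0.03. With library totals in place of TMM the balance turned, with 19 higher and 13 lower. The balance over all tested genes turned as well, with 3817 higher and 2418 lower against 2904 and 3103 under TMM. The highest rise was that of PTGS2, the inducible cyclooxygenase, from 1.90 ± 0.413 to 8.96 ± 0.151 CPM (mean ± SD, n = 3 each), a log2FC of 2.24 (adjusted p = 9.88e-11). SNAI1, a repressor of CDH1, had a log2FC of 0.98 (adjusted p = 1.23e-06) and the antiproliferative gene BTG2 one of 0.90 (adjusted p = 6.35e-05). DUSP4, a phosphatase that acts on MAP kinases in the nucleus, fell from 118 ± 5.53 to 44.5 ± 0.739 CPM (mean ± SD, n = 3 each), a log2FC of -1.40 (adjusted p = 3.86e-15). TIPARP and the ERK pathway inhibitor SPRY2 had log2FC of -0.67 (adjusted p = 3.95e-10) and -0.64 (adjusted p = 2.05e-08). MYC, a growth regulator, had a log2FC of 0.09 (adjusted p = 0.0376), and this call was lost in DESeq2 and without any one of 5 replicates.

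Among kinases, SRF factors and other regulators upstream, 8 of 42 tested genes (19.0%) were higher and 9 (21.4%) were lower, and the median log2FC was -0.02. ELK4, an ETS factor that joins SRF at the FOS and EGR1 promoters, fell from 90.4 ± 4.29 to 41.7 ± 2.79 CPM (mean ± SD, n = 3 each), a log2FC of -1.11 (adjusted p = 1.47e-12). The p38 kinase MAPK14 had a log2FC of -0.39 (adjusted p = 5.76e-09). SRF itself rose by a log2FC of 0.40 (adjusted p = 3.53e-08), its cofactor MKL1 by 0.27 (adjusted p = 0.0018) and the p38 kinase MAPK13 by 0.56 (adjusted p = 5.68e-09).

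Among genes known as AP-1 targets, 14 of 45 tested genes (31.1%) were higher and 22 (48.9%) were lower, with a median log2FC of -0.10. The falls included the collagenase gene MMP1, a classic AP-1 target, at a log2FC of -2.08 (adjusted p = 6.33e-21), the stromelysin gene MMP3 at -0.96 (adjusted p = 1.11e-06) and the collagen receptor subunit ITGA2 at -0.91 (adjusted p = 2.57e-11). The rises included the matrix protein gene SPARC at 1.57 (adjusted p = 1.74e-10) and the cytokines CSF2 at 1.51 (adjusted p = 8.05e-14) and IL11 at 1.18 (adjusted p = 4.41e-15). The list thus held large changes in both directions, and whether AP-1 acted on any of these genes was not measured.

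**Figure D5:**
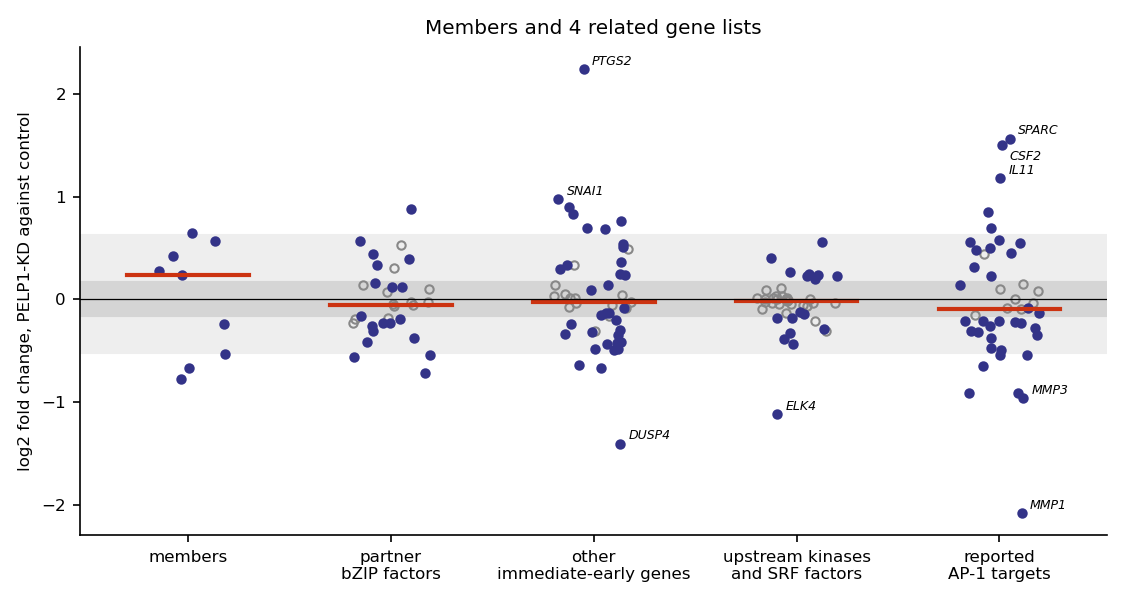
log2FC of each tested gene (y axis) in the members and in the 4 related lists, with filled points for an adjusted p below 0.05, red lines for medians and grey bands for the 5th to 95th and 25th to 75th percentiles of all tested genes. PTGS2, SPARC, CSF2 and IL11 stand above a log2FC of 1, and DUSP4, ELK4 and MMP1 below -1.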

How the data were processed

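Total RNA of 6 samples was made into libraries with a stranded mRNA kit and sequenced as single reads. The authors deposited raw counts of reads per gene symbol, and the submitters' processing notes name TopHat2, SAMtools, HTSeq and the build hg19. Versions, annotation and strand setting are not given in the sources used here. Of all counts in a sample, 32.5% to 32.9% were in the class of several alignments, 7.64% to 8.19% on no feature and 0.657% to 0.688% ambiguous. These classes were on no gene and were left out. A read with several alignments may be counted more than once, so the first share need not be a share of reads.

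Counts were tested in R 4.3.3 with edgeR 4.0.16 (filterByExpr with a minimum count of 10, TMM, quasi-likelihood test, Benjamini-Hochberg adjustment over 12796 genes). Standard errors were derived as log2FC over the root of the F statistic. RPKM used the union of exons in GENCODE 29 (GRCh38), and GC content and 3' UTRs the longest coding transcript, given for 86.2% of tested genes. Floors cover counting error only, whereas the SDs and standard errors include the spread between replicates. The script recovered 192 of 200 genes of simulated log2FC 1 in this comparison, run on 12709 genes. The simulation gave all genes the same dispersion and used changes larger than those of the members. It therefore does not show recovery at the members' sizes.

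Alternatives were RLE factors, library totals, voom with limma 3.58.1, DESeq2 1.42.0, dropping the filter, a minimum of 10 counts per replicate, blocking on replicate number and leaving out each replicate. The subtraction by GC content and the 3' UTR words were chosen after the data were seen. Members and lists were chosen with earlier results of these data known. Named list genes are the 3 with the largest log2FC in each direction at an adjusted p below 0.05 and a mean of at least 1 CPM, plus MYC, and 1 gene that this rule names is not reported here. The same-numbered replicates' deviations correlated at 0.039, 0.065 and -0.078, which showed no pairing by number but cannot exclude one.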

Additional observations from a re-analysis of the deposited data

How the results depend on the processing

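FOSL1, FOSL2, JUN, JUNB, ATF3, EGR1 and IER3 kept their direction and an adjusted p below 0.05 under all 13 alternative fits, and FOS and JUND kept their direction. With the replicate number as a block, 5 members were called higher and 4 lower, no member's call changed, and 3140 and 3335 of all tested genes were called higher and lower. Where each replicate had to hold at least 10 counts, 134 genes were higher and 106 lower past a log2FC of 1, since fewer genes were tested. Scaling by library totals, which moved the median log2FC of tested genes to 0.051, gave 3817 genes higher and 2418 lower against 2904 and 3103, and 11 other bZIP factors higher and 10 lower. Leaving out single replicates gave between 5 and 8 other bZIP factors called higher, with 5 reached without PELP1-KD replicate 3. The summed JUN family differed by between -2.84 and 7.41 RPKM, PELP1-KD minus control, and it was -2.84 without control replicate 1. Without exon lengths, the FOSL1 share of the family differed by -13.7 percentage points and not -8.92, and FOSL2 was then above FOSL1 in PELP1-KD cells. Depth limits FOS and FOSB, which had at most 36 and 20 reads in a replicate.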

Other observations

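Further immediate-early genes are named here because of their values, so they do not show the balance of the list. Of its 50 tested genes, 16 were higher and 19 were lower. The nuclear receptor gene NR4A1 went from 4.45 ± 0.201 to 7.54 ± 0.863 CPM (mean ± SD, n = 3 each), a log2FC of 0.76 (adjusted p = 4.34e-05 from edgeR's quasi-likelihood test). The small GTPase gene RHOB had a log2FC of 0.70 (adjusted p = 2.51e-09) and CSRNP1 one of 0.68 (adjusted p = 5.27e-08). The secreted matricellular genes CYR61 and CTGF rose by 0.55 (adjusted p = 1.27e-13) and 0.52 (adjusted p = 1.92e-12) on the log2 scale. DUSP6, a phosphatase of ERK, had a log2FC of -0.43 (adjusted p = 5.1e-09), PHLDA1 one of -0.41 (adjusted p = 2.30e-10) and the EGR corepressor NAB1 one of -0.49 (adjusted p = 1.71e-07). The KLF genes of the list were lower too. KLF2 and KLF4 each had a log2FC of -0.49 (adjusted p = 6.30e-04 and 2.88e-04). KLF6 had one of -0.34 (adjusted p = 6.66e-08), KLF10 one of -0.30 (adjusted p = 9.45e-05) and ZFP36L1 one of -0.42 (adjusted p = 3.19e-08). IER2, HBEGF, GADD45A and GADD45B did not pass the test, with a log2FC between 0.02 and 0.06. Among the other DUSP phosphatases of the list, DUSP8 rose by 0.83 (adjusted p = 1.44e-05), DUSP5 by 0.23 (adjusted p = 2.73e-04) and DUSP1 by 0.14 (adjusted p = 0.0228) on the log2 scale. DUSP10 fell by 0.20 (adjusted p = 0.0220), and DUSP2 did not pass the test, with a log2FC of 0.49 (adjusted p = 0.133).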
